A study of Bos grunniens x Bos taurus and Bos grunniens with 6 samples.

Results

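The potassium, sodium, calcium, chloride and TRP channel genes of the testis were described in cattle-yak and in yak. They were the genes whose symbol begins with KCN and a channel letter (KCNU1 left out), SCN, SCNN1, CACNA, CACNB, CACNG, CLCN or TRP of the A, C, M and V classes, together with PKD2, PKD2L1 and PKD2L2. The table held 168 such genes among 18918 in all. They carried 156 symbols, since 12 symbols stood on 2 genes each, whose values are uncertain where the counting could have split reads between such copies. The members were 93 potassium, 18 sodium, 24 calcium, 7 chloride and 26 TRP genes, in 18 families of pores and auxiliary subunits.

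Testis RNA was measured by RNA-seq in 3 cattle-yak and 3 yak, with 1 library per animal. The cattle-yak, named C1 to C3, were F1 males of a Jersey sire and a Gannan yak dam, kept in Xiahe County, and their testes came from castration. The yak, named Y1 to Y3, were Gannan males from Linxia County, and their testes were taken after euthanasia. All were 4 years old and carried no transgene or treatment, and genotype, county and mode of collection cannot be told apart. Male F1 cattle-yak are sterile and form no mature sperm, and the comparison asked how testis transcripts differ from those of a fertile yak.

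Ion channels are membrane proteins that let selected ions cross when voltage, a ligand, calcium or a mechanical or thermal stimulus opens the pore. Many pores work only with auxiliary subunits that set their gating and carry them to the surface, and silent potassium channel subunits form no channel alone. In the testis, channels are known from Sertoli cells (the nurse cells of the tubule), from the contractile cells around the tubule, from steroid-producing Leydig cells, and from spermatids and sperm, whose membrane potential and calcium entry they set.

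Values were FPKM (fragments per kilobase of gene, scaled to a common depth of the library), so levels can be compared between genes per length. The libraries held 11175109 to 11834997 fragments on genes in cattle-yak and 12991652 to 13136140 in yak, so 1 fragment was worth 0.0761 to 0.0895 FPKM in a gene of 1 kb. A test with limma on log2 (FPKM + 1) was made where the mean over all animals reached 0.5 FPKM. A call needed a log2 fold change past 1 in size and a p under 0.05 after Benjamini-Hochberg adjustment. Fold changes are on that scale, cattle-yak over yak, and understate the change of low genes. The median fold change of all 15042 tested genes was 0.51.

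Markers of the cell types of the testis differed between the groups. Of the round spermatid markers 7 of 7 tested were called lower (median log2 fold change -5.04), and of the elongating spermatid markers 8 of 8 (-7.62). Of the Sertoli markers 14 of 14 were called higher (2.32), of the Leydig markers 6 of 7 (1.92), of the smooth muscle and peritubular myoid markers 8 of 8 (1.91), of the spermatogonial markers 7 of 8 (1.87) and of the endothelial markers 5 of 8, with 1 called lower (1.21). Spermatocyte markers had 1 of 8 higher and 1 lower (-0.14). Of nerve and glia markers 2 of 6 were higher and 2 lower (0.25), of macrophage markers 4 of 7 were higher and 2 lower (1.16), and of T cell markers 3 of 5 were higher (1.09). The part of these shifts in the channel results below was not tested, and in whole testis fewer cells of a type and less RNA per cell cannot be told apart.

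Channel genes were lowly expressed. A mean under 5 FPKM in both groups was found for 134 of the 168, and 67 were under the limit for testing, or 39.9% against 20.5% of all genes. Means of at least 1 FPKM were reached by 68 in cattle-yak and 72 in yak, and means of at least 10 FPKM by 14 and 7. The summed level of all members was 642.6, 713.7 and 612.5 FPKM in C1 to C3, and 360.0, 367.2 and 392.4 FPKM in Y1 to Y3. The groups did not overlap, and the ratio of the means was 1.76. Potassium channels held the largest summed level in both groups, at 226.4 FPKM in cattle-yak and 178.2 FPKM in yak. The ratio of the summed levels was 2.77 for calcium channels, 3.11 for chloride channels, 1.53 for TRP channels, 1.27 for potassium channels and 0.895 for sodium channels. All these sums are on the deposited values. Median-of-ratios scaling, used below, divides the cattle-yak values by 1.22 to 1.27 and the yak values by 0.79 to 0.83. It would lower each of these ratios, so their size, and the direction of those near 1, depends on the scaling.

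Of the 101 channel genes tested, 25 were called higher in cattle-yak, or 24.8%, against 33.4% of all tested genes. A further 21 were called lower, or 20.8%, against 20.8% of all tested genes. The groups did not overlap for 79 of the 101, or 78.2%, against 84.1% of all tested genes, and the 46 called members were among these 79. On this scale their share of lower calls was thus that of the background, and their share of higher calls was below it. With a pseudocount of 0.1 FPKM, 39.6% of members were higher and 25.7% lower, against 5924 and 3414 of 15042 genes. With voom on the fragment counts the member shares were the same, against 5961 and 3419 genes. In both settings the share of higher calls was near that of all tested genes. The median fold change of the tested members was 0.34, below the 0.51 of all tested genes. Beside the called members, 22 rose and 9 fell at an adjusted p under 0.05 in limma with a fold change within the threshold.

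The calls depended on how the libraries were scaled. Median-of-ratios scaling moved the median of all genes to 0.01, and 15 members were then called higher and 25 lower, against 17.7% higher and 27.7% lower of all genes. These included 15 of the 25 and 21 of the 21 called on the deposited values. The 10 rises lost were KCNE5, KCNQ3, KCND3, KCNF1, KCNS3, SCN8A, CACNA2D2, CACNA1C (ENSBGRG00000000380), TRPC4 and TRPM7. Centring the libraries on Sertoli genes moved the median of all genes to -1.71, and 0 members were called higher and 83 lower, against 0.199% higher and 73.5% lower of all genes. The 21 lower members were all called lower there too, while 19 of the 25 higher members changed sign. Both scalings moved fold changes down, so a fall could not turn into a rise. The centring took a shift per library from log2 (FPKM + 1), where the added 1 FPKM shrinks the changes of low genes. A low gene could thus change sign despite a large ratio of its mean FPKM. Examples are KCNJ4 (-0.56), with 0 fragments in each yak, and KCNE5 (-1.03), with a ratio of 14.3. The 6 that stayed above 0 were CACNA1H at 0.70, KCNH2 at 0.25, KCNA4 and CLCN2 at 0.22, TRPM4 (ENSBGRG00000016386) at 0.18 and CACNA2D1 at 0.01. "Rose" is used below of calls on the deposited values, and so of a rise per total transcript. For low genes this centring cannot settle whether they rose per Sertoli transcript.

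**Figure D1:**
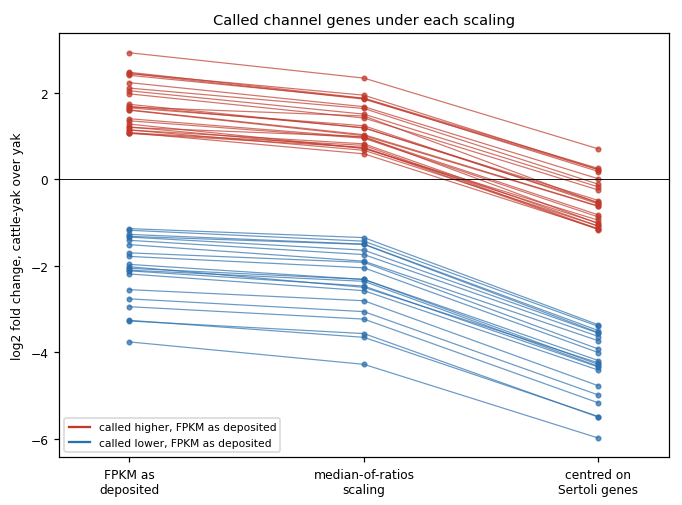
The log2 fold change, cattle-yak over yak, of the 46 called channel genes with FPKM as deposited, after median-of-ratios scaling and after centring on Sertoli genes. Each line is a gene, and 6 of the 25 red lines are above 0 after centring on Sertoli genes. The 21 blue lines are below 0 in all 3 scalings, which was fixed in advance because both scalings move fold changes down.

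The most abundant channel transcript of the cattle-yak testis was KCNH2 (ENSBGRG00000004337), the pore of the rapid delayed rectifier known from the heart. Its level was 90.5, 89.0 and 94.0 FPKM in C1 to C3 and 15.5, 16.1 and 15.4 FPKM in Y1 to Y3. It rose by 2.47 ± 0.09 (SE, n = 3 and 3; adjusted p = 1.9e-07 in limma), and the animals within each group were close to each other. KCNH2 held 89.4% of the summed KCNQ and KCNH level in cattle-yak and 62.4% in yak. The only other rise among the 7 tested members of these families was KCNQ3, a pore of the M current, at 4.96 ± 1.26 against 1.24 ± 0.27 FPKM (SD, n = 3 each). KCNH5 and KCNH6 fell within the threshold, by 0.76 and 0.79 on the log2 scale, and KCNH1 rose within it, by 0.61.

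Among the KCNA to KCND pores and the silent subunits, 15 of 27 were tested, 5 rose and 3 fell. On the log2 (FPKM + 1) scale, which understates low genes, the largest fall of any channel gene was that of KCNG1 (ENSBGRG00000005160). In a voom fit of the fragment counts, genes such as TRPV5 (-7.49) and KCND2 (-6.82) fell further than KCNG1 (-4.19). KCNG1 is a silent subunit that forms channels only with KCNB pores. It stood at 35.9, 55.6 and 56.5 FPKM in Y1 to Y3, where it was the most abundant channel transcript and held 13.2% of the summed level of all members, and at 2.64, 2.85 and 2.42 FPKM in C1 to C3. The fold change was -3.76 ± 0.19 (SE; adjusted p = 6.9e-07 in limma), and the groups were far apart.

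KCNB2 (ENSBGRG00000013790), one of the KCNB pores, fell too. Its level was 0.957, 0.425 and 0.819 FPKM in cattle-yak and 4.56, 9.96 and 6.95 FPKM in yak, with a fold change of -2.19 ± 0.26 (SE; adjusted p = 7.4e-05 in limma). The yak animals spread by over a factor of 2 and the groups did not overlap.

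Besides KCNG1, 3 silent subunits were tested, and none of these 3 was called lower. KCNS3 rose by 1.35, from 0.95 ± 0.16 to 4.01 ± 0.996 FPKM, and KCNF1 by 1.07, from 0.41 ± 0.23 to 2.02 ± 0.91 FPKM. KCNG3 was at 5.02 FPKM in cattle-yak and 5.58 FPKM in yak, and was not called (adjusted p = 0.588 in limma). KCNF1 was at 3.07 FPKM in C2 against 1.48 and 1.51 FPKM in C1 and C3, and its fold change was 0.83 without C2 and 0.96 without Y3, under the threshold.

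The fast-inactivating and fast-gating pores split. KCNA4 (ENSBGRG00000011603), an A-type pore, was at 14.4, 15.8 and 15.0 FPKM in C1 to C3 and 1.84, 1.89 and 2.13 FPKM in Y1 to Y3, and rose by 2.44 ± 0.13 (SE; adjusted p = 9.2e-07 in limma). KCNC2 (ENSBGRG00000011149), a pore of fast-spiking neurons, was at 21.0, 16.6 and 16.2 FPKM in cattle-yak and 3.83, 3.65 and 3.24 FPKM in yak, and rose by 2.04 ± 0.15 (SE; adjusted p = 4.2e-06 in limma). Neither gene had overlapping groups, and KCNC2 was the most abundant member of its group of families in each cattle-yak.

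KCND2 (ENSBGRG00000026206), another A-type pore, went the other way. It was at 7.51, 7.34 and 6.98 FPKM in yak, from 197, 192 and 181 fragments, and at 0.042, 0.179 and 0 FPKM in cattle-yak, from 1, 4 and 0 fragments. The fall was -2.95 ± 0.15 (SE; adjusted p = 6.9e-07 in limma). KCND3, its close relative, rose by 1.13, from 0.49 ± 0.06 to 2.35 ± 0.90 FPKM. KCND3 was highest in C2 and its fold change was 0.93 without that animal, so the call was lost.

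The KCNIP proteins, calcium-binding partners of the KCND pores, did not all move one way. KCNIP2 (ENSBGRG00000025831) was at 0.644, 0.938 and 0.082 FPKM in C1 to C3 and at 6.17, 3.78 and 5.06 FPKM in Y1 to Y3, and fell by 1.97 ± 0.25 on the log2 scale (SE; adjusted p = 1.2e-04 in limma). KCNIP1 (ENSBGRG00000018093) was at 7.48, 16.6 and 7.05 FPKM in C1 to C3 and at 1.30, 1.65 and 1.49 FPKM in Y1 to Y3, and rose by 2.10 ± 0.29 (SE; adjusted p = 1.9e-04 in limma). KCNIP1 was more than 2 times as high in C2 as in the other cattle-yak, and the groups did not overlap for either gene. KCNIP3 was not called (-0.52, adjusted p = 0.182 in limma). KCNIP4 rose within the threshold, by 0.94, and was called higher without C3 (1.19) or Y3 (1.02).

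Of the single-span KCNE subunits, KCNE5 rose by 1.19 and both genes named KCNE2 fell. KCNE5 was at 1.16, 2.86 and 0.984 FPKM in cattle-yak, and its fold change was 0.89 without C2, under the threshold. The KCNE2 gene ENSBGRG00000000148 had 0 fragments in each cattle-yak and 9, 7 and 12 in the yak, at least 2.75-fold lower against a floor of 3 fragments per library. The KCNE2 gene ENSBGRG00000000147 had 2, 0 and 0 fragments against 9, 11 and 6. Of 12 auxiliary subunits in all, 11 were tested, 2 rose and 3 fell.

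Among the calcium- and sodium-activated potassium channels, KCNMA1 (ENSBGRG00000021722), the large-conductance pore, was not called. It was at 2.23, 3.86 and 3.49 FPKM in cattle-yak and at 5.77, 2.65 and 5.20 FPKM in yak, and the groups overlapped (-0.37 ± 0.27, SE; adjusted p = 0.223 in limma). Its beta subunits, which set its calcium sensitivity, did not move together. KCNMB1 (ENSBGRG00000018578), the subunit known from smooth muscle, was at 4.88, 4.30 and 6.15 FPKM in cattle-yak against 0.819, 0.950 and 1.05 FPKM in yak, and rose by 1.65 ± 0.16 (SE; adjusted p = 2.8e-05 in limma).

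KCNMB2 (ENSBGRG00000003278) had 0, 0 and 1 fragments in cattle-yak and 40, 36 and 66 in yak, or 2.38 ± 0.84 FPKM, and fell by 1.70 on the log2 scale (adjusted p = 6.7e-05 in limma). KCNMB4 rose within the threshold, by 0.77. KCNN3, a small-conductance pore, fell by 1.42, from 3.41 ± 1.99 to 0.57 ± 0.33 FPKM. Of the 7 tested members of these families 1 rose and 2 fell.

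Of the 17 inward rectifiers 5 were tested, and the other 12 had means under 0.5 FPKM. KCNJ1 (ENSBGRG00000024284), an ATP-regulated pore best known from the kidney, was at 4.32, 2.47 and 3.88 FPKM in yak and at 0, 0.242 and 0 FPKM in cattle-yak, where 0, 3 and 0 fragments were counted. It fell by 2.06 ± 0.21 on the log2 scale (SE; adjusted p = 2.7e-05 in limma), and KCNJ14 fell by 1.34.

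KCNJ4 (ENSBGRG00000002488), a strong inward rectifier, had fragments in the cattle-yak only. It had 15, 35 and 61 fragments in C1 to C3, or 0.945, 2.34 and 3.92 FPKM, and 0 in each yak, which made it at least 14.0-fold higher against the floor of 3 fragments per library. The fitted rise was 1.67 ± 0.31 (SE; adjusted p = 1.1e-03 in limma). KCNJ8 (ENSBGRG00000003524), a pore of ATP-sensitive channels in vascular smooth muscle, was the leading inward rectifier of the cattle-yak at 5.74 ± 0.86 against 2.51 ± 0.33 FPKM, and with 0.94 was just inside the threshold (adjusted p = 6.8e-04 in limma). Its fold change was 1.04 without C3 and 0.45 with median-of-ratios scaling. KCNJ6, under the limit for testing, had 0 fragments in each cattle-yak and 18, 24 and 21 in the yak, at least 6.17-fold lower.

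The K2P channels, background leak pores with paired pore loops, had 0 rises and 2 falls among 6 tested. The shares of all tested genes were 33.4% and 20.8%, and 6 genes are too few to tell these counts from them. KCNK16 (ENSBGRG00000006708), known from the pancreas, was at 8.45, 9.44 and 10.5 FPKM in yak and at 0.240, 0 and 0 FPKM in cattle-yak, from 2, 0 and 0 fragments. The fold change was -3.28 ± 0.16 (SE; adjusted p = 7.3e-07 in limma). The other gene named KCNK16 (ENSBGRG00000024241) had 15, 8 and 9 fragments in yak and 0 in each cattle-yak, at least 3.13-fold lower.

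KCNK12 fell by 1.51, from 4.36 ± 0.88 to 0.89 ± 0.42 FPKM. KCNK9 (ENSBGRG00000024198), an acid-sensitive leak pore, was the highest K2P member of the cattle-yak at 3.35 ± 0.84 against 1.86 ± 0.50 FPKM, a fold change of 0.60 within the threshold (adjusted p = 0.0257 in limma). The summed K2P level was 11.8 ± 0.37 FPKM in cattle-yak and 21.2 ± 0.24 FPKM in yak.

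**Figure D2:**
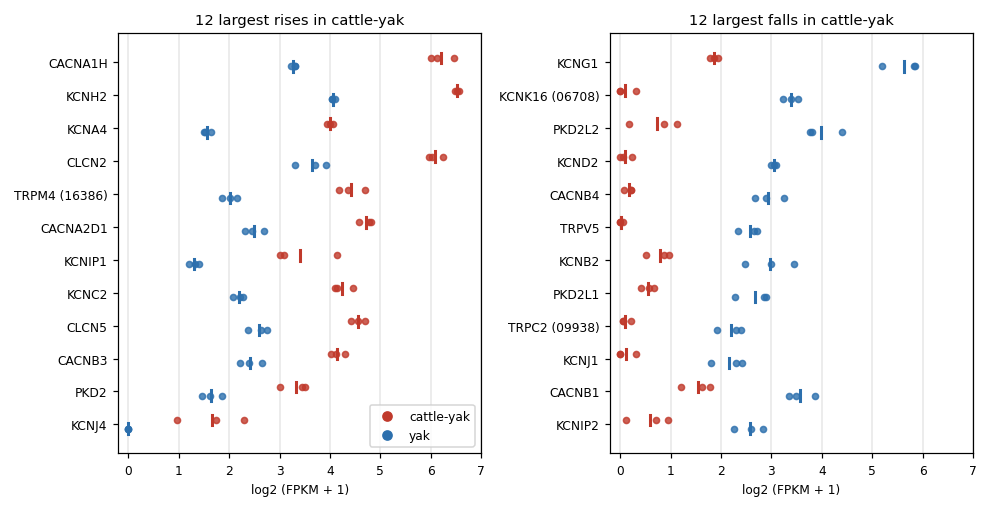
Levels of the 12 channel genes with the largest rises and the 12 with the largest falls, as log2 (FPKM + 1), with a dot for each of the 3 cattle-yak and 3 yak and a bar at each group's mean. No gene has overlapping groups, and the falls reach from KCNG1 at -3.76 to KCNIP2 at -1.97; the digits after KCNK16, TRPM4 and TRPC2 end the identifier of the gene shown.

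Sodium channels carried little transcript. Of the 11 voltage-gated pores 5 were tested. SCN8A (ENSBGRG00000005468), a neuronal pore, was at 8.14, 7.04 and 6.23 FPKM in cattle-yak and 2.64, 2.44 and 2.46 FPKM in yak, and rose by 1.21 ± 0.15 (SE; adjusted p = 8.5e-05 in limma), but by 0.71 with median-of-ratios scaling, under the threshold. SCN4A (ENSBGRG00000012607), the skeletal muscle pore, had 10, 7 and 7 fragments against 164, 64 and 148 and fell by 1.14 on the log2 scale. SCN9A (ENSBGRG00000022714), a pore of sensory neurons, was at 1.46 ± 0.36 against 2.64 ± 1.02 FPKM and was not called (adjusted p = 0.0573 in limma).

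SCN4B (ENSBGRG00000022985), a beta subunit, was at 1.50 FPKM in cattle-yak and 2.67 FPKM in yak and was not called, with a fold change of -0.57 (adjusted p = 0.0245 in limma). SCNN1B (ENSBGRG00000023352), the beta subunit of the epithelial sodium channel, was at 3.89, 1.93 and 3.31 FPKM in yak and 0.085, 0.150 and 0.203 FPKM in cattle-yak, and fell by 1.79 ± 0.21 on the log2 scale (SE; adjusted p = 7.7e-05 in limma). SCNN1D (ENSBGRG00000013988), the delta subunit, was at 1.09 against 2.13 FPKM, within the threshold.

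Calcium channels held the largest rise of any channel gene on the log2 (FPKM + 1) scale, that of CACNA1H. In the voom fit of the fragment counts the low gene KCNJ4 rose further, by 6.19 against 3.06 for CACNA1H. CACNA1H (ENSBGRG00000026596), a T-type pore that opens at low voltage, was at 69.1, 86.7 and 63.3 FPKM in C1 to C3 and 8.92, 8.32 and 8.85 FPKM in Y1 to Y3. It rose by 2.92 ± 0.13 (SE; adjusted p = 4.9e-07 in limma), and was the one member whose fold change after centring on Sertoli genes was still above 0 at an adjusted p under 0.05 (0.70, adjusted p = 1.0e-03 in limma). It was the leading calcium channel pore in each of the 6 animals, with 85.7% of the pores' summed level in cattle-yak and 52.7% in yak.

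The other pores were low. CACNA1C, an L-type pore of smooth muscle, stood on 2 genes, of which ENSBGRG00000000380 rose by 1.05 and ENSBGRG00000000318 by 0.73, within the threshold. The call of the first was lost without C2 (0.91) or Y2 (0.97). CACNA1A, the P/Q-type pore, was at 0.64 against 2.23 FPKM with a fold change of -0.96, and was called lower without C2 (-1.04) or Y2 (-1.14). CACNA1G, another T-type pore, had a fold change of 0.96 and was called higher without C3 (1.24).

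Of the alpha2delta subunits, which carry the pores to the membrane, CACNA2D1 (ENSBGRG00000020514) was at 26.2, 27.0 and 22.8 FPKM in cattle-yak and 4.49, 3.97 and 5.44 FPKM in yak, and rose by 2.23 ± 0.14 (SE; adjusted p = 2.3e-06 in limma). CACNA2D2 rose by 1.07 and CACNA2D3 fell within the threshold, by 0.49 on the log2 scale.

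The beta subunits, which bind the pore inside the cell, exchanged places. CACNB1 (ENSBGRG00000013326) was at 13.6, 9.19 and 10.3 FPKM in yak and 2.10, 2.45 and 1.32 FPKM in cattle-yak, a fold change of -2.02 ± 0.21 (SE; adjusted p = 3.0e-05 in limma). CACNB4 (ENSBGRG00000008687) was at 5.35, 6.44 and 8.49 FPKM in yak and 0.156, 0.165 and 0.053 FPKM in cattle-yak, a fold change of -2.77 ± 0.18 (SE; adjusted p = 2.9e-06 in limma). CACNB3 (ENSBGRG00000000782) was at 16.5, 18.8 and 15.1 FPKM in cattle-yak and 3.65, 4.26 and 5.29 FPKM in yak, and rose by 1.73 ± 0.16 (SE; adjusted p = 1.6e-05 in limma). Their summed level was 18.9 ± 2.47 FPKM in cattle-yak and 22.2 ± 2.10 FPKM in yak, while the share of CACNB3 was 89.0% in cattle-yak and that of CACNB1 49.6% in yak.

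Of the 7 CACNG genes 2 were tested and none was called. CACNG4 (ENSBGRG00000018056) and CACNG5 (ENSBGRG00000018123), which are better known as partners of AMPA glutamate receptors, had overlapping groups. CACNG4 was at 1.49 FPKM in C2 and at 0.351 and 0.179 FPKM in C1 and C3.

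**Figure D3:**
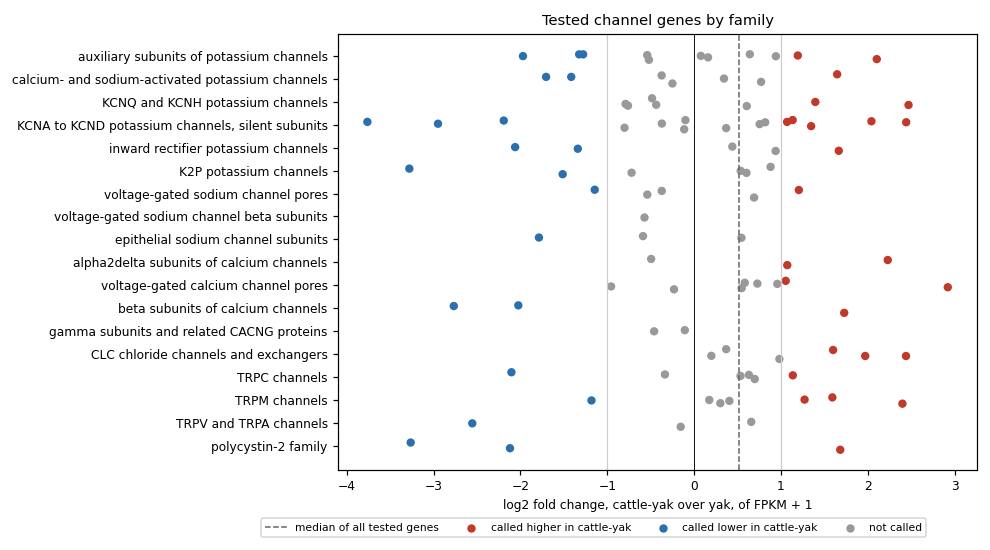
The log2 fold change of the 101 tested channel genes by family, with calls in colour, the median of all tested genes as a dashed line (0.51) and the fold thresholds in grey. The CLC family has no point below 0, the K2P family has no call to the right, and the beta subunits and the polycystin-2 family have no uncalled member.

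The CLC genes were the one ion class with no fall, with 6 of 7 tested, 3 higher and 0 lower. Of all tested genes 33.4% were called higher and 20.8% lower, and with 6 genes tested 0 falls cannot be told from that background. Their median fold change was 1.29, and 0.71 with median-of-ratios scaling, where 3 were called higher too. CLCN2 (ENSBGRG00000003313), a plasma membrane chloride channel needed for the survival of germ cells in mice, was at 61.7, 74.6 and 64.5 FPKM in cattle-yak and 12, 8.91 and 14.2 FPKM in yak. It rose by 2.44 ± 0.17 (SE; adjusted p = 3.3e-06 in limma), and the groups did not overlap.

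CLCN5 (ENSBGRG00000025456) and CLCN7, chloride-proton exchangers of endosomes and lysosomes, rose by 1.97 ± 0.15 and 1.60 ± 0.13 (SE; adjusted p = 5.1e-06 and 1.0e-05 in limma). CLCN5 was at 25.0, 22.4 and 20.3 FPKM in cattle-yak and 5.69, 4.18 and 5.23 FPKM in yak, and CLCN7 at 25.1 ± 1.09 and 7.66 ± 1.27 FPKM. The endosomal exchanger CLCN3 (ENSBGRG00000014279) was at 33.7, 31.7 and 25.8 FPKM against 15.6, 16.2 and 12.9 FPKM. At 0.98 ± 0.14 it was just inside the threshold (SE; adjusted p = 2.4e-04 in limma), and it was called without C3 (1.09), Y1 (1.02) or Y2 (1.04). With median-of-ratios scaling its fold change was 0.39. CLCN6 (ENSBGRG00000008810), a late endosomal exchanger, was at 8.27 against 7.08 FPKM, a fold change of 0.20 that was not called (adjusted p = 0.188 in limma) and stood at -0.35 with median-of-ratios scaling.

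TRP channels were led by TRPM4, a calcium-activated channel for monovalent cations. The symbol stood on 2 genes. The gene ENSBGRG00000016207 was at 36.6, 44.5 and 30.8 FPKM in cattle-yak and 10.7, 10.5 and 13.7 FPKM in yak, and rose by 1.59 ± 0.16 (SE; adjusted p = 3.2e-05 in limma). The gene ENSBGRG00000016386 was at 19.5, 25.1 and 17.0 FPKM and 2.65, 3.03 and 3.47 FPKM, and rose by 2.40 ± 0.17 (SE; adjusted p = 4.1e-06 in limma). Both were highest in C2, and neither had overlapping groups.

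TRPM7, a channel joined to a kinase that carries magnesium, rose by 1.27, from 6.28 ± 0.84 to 16.5 ± 1.14 FPKM. TRPM8 (ENSBGRG00000014019), a cold receptor, fell by 1.18 on the log2 scale, from 1.80 ± 0.25 to 0.23 ± 0.04 FPKM.

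Of the TRPC channels, which open after receptor activation, TRPC1 (ENSBGRG00000000286) led in the mean of both groups, at 7.60 ± 0.45 FPKM in cattle-yak and 4.96 ± 0.63 FPKM in yak. Its fold change was 0.53 and 0.00 with median-of-ratios scaling. TRPC4 (ENSBGRG00000024862) was at 4.83, 5.56 and 6.03 FPKM against 1.74, 2.32 and 1.78 FPKM and rose by 1.14 ± 0.15 (SE; adjusted p = 1.8e-04 in limma), but by 0.67 with median-of-ratios scaling, under the threshold.

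TRPC2, which is known from rodent sperm and the vomeronasal organ, stood on 2 genes that differed. The gene ENSBGRG00000009938 was at 2.77, 4.25 and 3.95 FPKM in yak and 0.157, 0.033 and 0.032 FPKM in cattle-yak, a fold change of -2.10 ± 0.18 (SE; adjusted p = 1.1e-05 in limma). The gene ENSBGRG00000009873 was at 3.65, 4.92 and 5.17 FPKM in yak and 3.86, 2.99 and 3.36 FPKM in cattle-yak, and was not called (adjusted p = 0.0923 in limma). The groups overlapped for the second gene and not for the first. TRPC7 had 0 fragments in each cattle-yak and 6, 5 and 7 in the yak, at least 1.76-fold lower.

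TRPV5 (ENSBGRG00000008575), a calcium-selective channel of absorbing epithelia, was found almost wholly in yak. It had 1, 0 and 0 fragments in cattle-yak and 167, 159 and 119 in yak, or 5.60, 5.34 and 4.03 FPKM, and fell by 2.55 ± 0.16 on the log2 scale (SE; adjusted p = 2.3e-06 in limma). TRPV2 (ENSBGRG00000012504), a mechanically and heat-activated channel, was at 1.45, 1.73 and 0.812 FPKM in cattle-yak and 0.348, 0.493 and 0.538 FPKM in yak, a fold change of 0.66 within the threshold (adjusted p = 0.0123 in limma).

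The 3 polycystin-2 genes were all called, in opposite directions. PKD2 (ENSBGRG00000020518), a channel of primary cilia and the endoplasmic reticulum, was at 7.06, 9.97 and 10.4 FPKM in cattle-yak and 2.63, 2.05 and 1.75 FPKM in yak, and rose by 1.68 ± 0.19 (SE; adjusted p = 5.3e-05 in limma). PKD2L2 (ENSBGRG00000002827), a relative known for its testis expression, was at 13, 20.3 and 12.6 FPKM in yak and 1.18, 0.836 and 0.134 FPKM in cattle-yak, a fold change of -3.26 ± 0.28 (SE; adjusted p = 1.2e-05 in limma). PKD2L1 (ENSBGRG00000024114), known from taste cells, was at 3.86, 6.46 and 6.23 FPKM in yak and 0.339, 0.490 and 0.597 FPKM in cattle-yak, a fold change of -2.12 ± 0.20 (SE; adjusted p = 2.1e-05 in limma). None of the 3 had overlapping groups.

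The member that led a family in mean level differed between the groups in 12 of the 18 families and was the same in 6. KCNH2, SCN4B, CACNA2D1, CACNA1H, TRPC1 and TRPM4 (ENSBGRG00000016207) led in both. In 5 families the leader of a group led in all 3 of its animals and differed from that of the other group. These were KCNIP2 and KCNIP1, KCNG1 and KCNC2, CACNB1 and CACNB3, TRPV5 and TRPV2, and PKD2L2 and PKD2, with the yak leader named first. Of these 10 genes TRPV2 was the one not called. In the other 7 families the leader was not the same in all animals of a group, as for CLCN3 and CLCN2, or SCN9A, which led in 1 yak. These orders are within a library and so do not depend on its scaling.

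**Figure D4:**
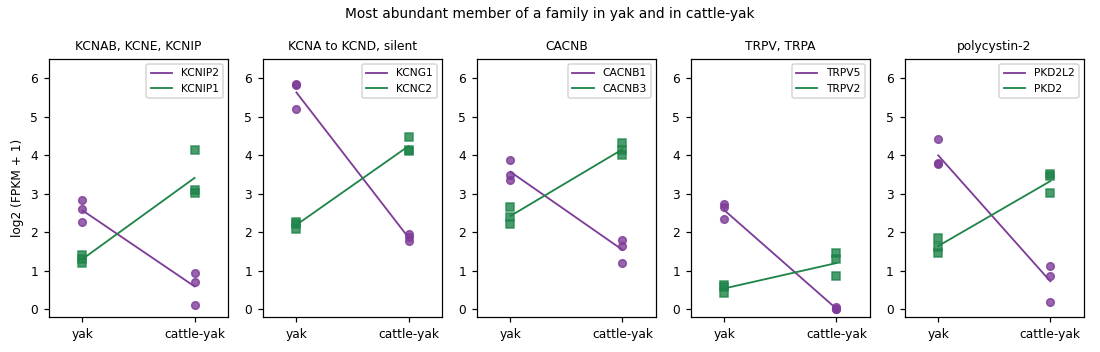
Levels as log2 (FPKM + 1) of the leading member in yak (purple circles) and in cattle-yak (green squares) for the 5 families whose leader differed and was shared by all 3 animals of a group; lines join the group means. In each panel the purple gene is the higher in yak and the green gene in cattle-yak.

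Single animals moved several members. C2 was the highest cattle-yak in 14 of the 25 higher members, against 4 for C1 and 7 for C3. The summed smooth muscle markers were also highest in C2, at 801.1 FPKM against 597.1 in C1 and 609.9 in C3 (122 to 151 in yak), and so were the T cell markers, at 30.5 FPKM against 16.6 and 24.9 (7.98 to 19.9 in yak). The endothelial and the nerve and glia sums were highest in C2 as well, and the Sertoli, macrophage and spermatogonial sums in C3. KCNMB1, known from smooth muscle, was lowest in C2 among the cattle-yak, at 4.30 FPKM. C1 was the highest cattle-yak in 11 of the 21 lower members. The summed round spermatid markers were highest in C1 too, at 31.0 FPKM against 16.1 and 6.27 (664 to 736 in yak), as were the elongating spermatid, spermatocyte and Leydig sums. The Leydig sum was mostly INSL3, with 12070 of 12420 FPKM in C1. Of the other Leydig markers LHCGR was highest in C1, CYP17A1 in C3, and STAR, CYP11A1, NR5A1 and HSD17B6 in C2. How often C1 or C2 was highest among all called genes was not counted, so these counts are not set apart from other genes. The part of these cells in the members' values was not tested.

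Leaving out each animal in turn gave 21 to 29 rises and 21 to 22 falls. Calls were lost for 4 members, all rises (KCNE5, KCND3, KCNF1 and CACNA1C), and each of the 4 was lost without C2. Of the 21 falls 0 were lost.

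Other channels and pumps, from a list of 63 outside the families above, were compared in the same fit. Of 46 tested, 18 were higher (39.1%, against 33.4% of all tested genes) and 11 lower (23.9%, against 20.8%), with a median fold change of 0.28 against 0.51. ATP1A4, the sodium pump subunit of sperm, was at 166.3, 139.6 and 150.3 FPKM in yak and 1.40, 0.783 and 0.363 FPKM in cattle-yak (-6.41), while ATP1B1, a beta subunit of sodium pumps, rose by 3.01. ORAI2 fell (-3.52) and ORAI3 rose by 3.09, both pores for calcium entry after store release. CNGB1, a cyclic nucleotide-gated subunit, fell (-2.48), and NALCN, the sodium leak channel, fell as well (-1.35). The 3 inositol trisphosphate receptors ITPR1, ITPR2 and ITPR3 rose by 1.66, 2.18 and 1.96.

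The functional terms deposited with the genes put most members on the plasma membrane, with 111 of the 168 (68 tested, 16 higher, 15 lower). The pathway terms on the most members were oxytocin signalling (28 members, 16 tested, 5 higher, 3 lower), MAPK signalling (24, 16, 5 and 2) and adrenergic signalling in cardiomyocytes (23, 14, 4 and 2). Of all tested genes 33.4% were called higher and 20.8% lower, and no term was tested against these shares. A member can carry several terms, so these counts are not independent.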

How the data were processed

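RNA-seq libraries of testis from 3 cattle-yak and 3 yak were used. Following the methods of the paper, reads were trimmed with Trimmomatic and mapped for both groups to the yak genome with HISAT2, and the authors named Cufflinks for FPKM and HTSeq for read counts. The FPKM values deposited by the authors are scaled to the depth of each library and carry no further scaling between libraries. Each is a whole number of fragments over length and depth (recovered for 17973 genes within 0.01 fragments, or 0.002 for genes with 2 values), so which tool gave it is uncertain. An effect of cattle alleles on mapping to the yak genome was not tested.

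The test was limma 3.58.1 (two-sided, moderated with a variance trend) in R 4.3.3, over 15042 of 18918 genes, on log2 (FPKM + 1). It was tested on simulated data with known changes, which were placed only in genes of higher level. The simulation thus does not show how the test performs for low genes, as many members are. Folds against a group at 0 used a floor of 3 fragments per library, which covers counting error only. Figures were drawn with matplotlib 3.10.9. Named genes were the 12 largest non-overlapping calls in each direction, the leading member of each family per group, the largest called rise and fall of each family with 3 or more tested members, and the 3 most abundant members not called. Other members named to complete a family, the other channels and pumps named, and the terms were chosen after their values were seen. The members and lists were chosen with earlier results of these data known. Alternatives were a pseudocount of 0.1, no filter, median-of-ratios and Sertoli-centred scaling, no trend, voom on the recovered fragments, no fold threshold, each animal left out and, chosen after seeing the data, 1 gene per symbol. The results of some genes are not reported here.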

Additional observations from a re-analysis of the deposited data

How the results depend on the processing

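The 25 rises became 40 with a pseudocount of 0.1 (39.6%, against 5924 of 15042 tested genes) and 40 with voom (39.6%, against 5961). They became 15 with median-of-ratios and 0 with Sertoli-centred scaling, with the shares of all genes given above. With no fold threshold they were 47, and the count over all genes was not made. The 21 falls stayed within 1.5 times that count in the alternatives run, except for 83 with Sertoli-centred scaling. The median of the tested members, 0.34, was 0.48 with a pseudocount of 0.1, 0.50 with voom, 0.08 without the filter, -0.05 with median-of-ratios and -1.88 with Sertoli-centred scaling. Sertoli-centring turned KCNIP1 (-0.12), KCNMB1 (-0.58), KCNC2 (-0.18), KCNJ4 (-0.56), KCNJ8 (-1.28), KCNK9 (-1.62), SCN8A (-1.02), CACNB3 (-0.49), CLCN3 (-1.24), CLCN5 (-0.25), CLCN6 (-2.02), TRPC1 (-1.69), TRPC4 (-1.09), TRPM4 ENSBGRG00000016207 (-0.63), TRPV2 (-1.57) and PKD2 (-0.54) below 0, by the shift of the scale itself. CLCN6 was at -0.35 with median-of-ratios scaling. CACNG4 ranged from -0.43 to 0.11 with each animal left out. With 1 gene per symbol, counts stayed within 1.5 times. No paired analysis was possible because the replicate numbers only name the animals. Depth limits the 67 members under 0.5 FPKM, which were not tested.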
